A study of Bos taurus with 96 samples.

Results

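Longissimus dorsi (LD), the long back muscle of the loin, was compared between 8 arrays labelled Wagyu x Angus, pasture and 8 arrays labelled Hereford, pasture. These 16 arrays were taken by their labels from the 96 arrays of the study, of which 36 hold LD. The animals were steers, for which the labels give an age of 26 months and 259 days of grain in a feedlot, but by the study's methods some LD samples came from an earlier kill that the labels do not separate. "Pasture" describes only the feeding just after weaning. The first group was crossbred and Hereford served as the purebred reference. The muscle was sampled with its intramuscular fat (IMF) in place, from few sires per genotype and from the RNA samples of best integrity and purity. The labels do not tie arrays to animals, so p-values measure only the spread between these samples. Each sample was hybridised to a one-colour bovine oligonucleotide array, with 4 arrays on each glass slide. A level below is the log2 signal of a probe minus the 75th percentile of its array, and a difference is the Wagyu x Angus mean minus the Hereford mean of such levels. Levels of different probes are not comparable.

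Wagyu cattle are known for deposition of fat between the fibres of the muscle, called marbling, and Hereford are not. Marbling adipocytes make fatty acids with FASN and SCD and store them in droplets coated by perilipin and CIDE proteins. In a whole piece of muscle more adipocytes and more RNA per adipocyte cannot be told apart, and the same holds for every other cell type. The other gene family that carries results here is the major histocompatibility complex, whose class II molecules such as BOLA-DQA5 and BOLA-DQB present peptides to helper T cells and vary between breeds in sequence and in gene content.

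The 16 arrays lay on 4 slides, called A to D here. Slides A and B held both labels, with 1 Wagyu x Angus and 3 Hereford arrays on A and 3 Wagyu x Angus and 1 Hereford array on B. Slide C held 4 Wagyu x Angus arrays and slide D 4 Hereford arrays. A and B were scanned on the day on which the LD supplement slides were scanned, D on another day and C on a further one. On these 16 arrays between 66.2% and 81.1% of probes were well above background (median 73.0%), no spot was saturated, and arrays of the same label correlated with r from 0.973 to 0.990. The myofibre genes MYH7, MYH2, MYH1, MB and ACTA1, which encode myosins, myoglobin and actin, had levels of 7.99 and above on every array.

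The breed label of slide D was at odds with its RNA. A score was made from the 100 probes that differed most between Hereford and Angus in the 60 fat arrays of the study, as the mean level with the sign turned so that Hereford is high. The 4 Hereford arrays of A and B scored 0.40 to 0.57 and the 4 Hereford supplement arrays 0.27 to 0.58. The 4 arrays labelled Hereford on slide D scored -0.31 to -0.23, inside the range of slide F, a slide of 4 arrays labelled Angus (-0.47 to -0.23), and overlapping the 4 Angus supplement arrays (-0.25 to -0.08). Slide E, also 4 arrays labelled Angus, scored 0.33 to 0.75, like Hereford arrays. The labels were kept as they are, and the cause was not tested. The results below are given as labelled and without slide D, or for A and B alone. Leaving out slide D was chosen after seeing the data. Without slide D the Wagyu x Angus arrays still include slide C, which held no Hereford array and was scanned on another day. In that part breed, slide and scan day cannot be told apart.

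**Figure D1:**
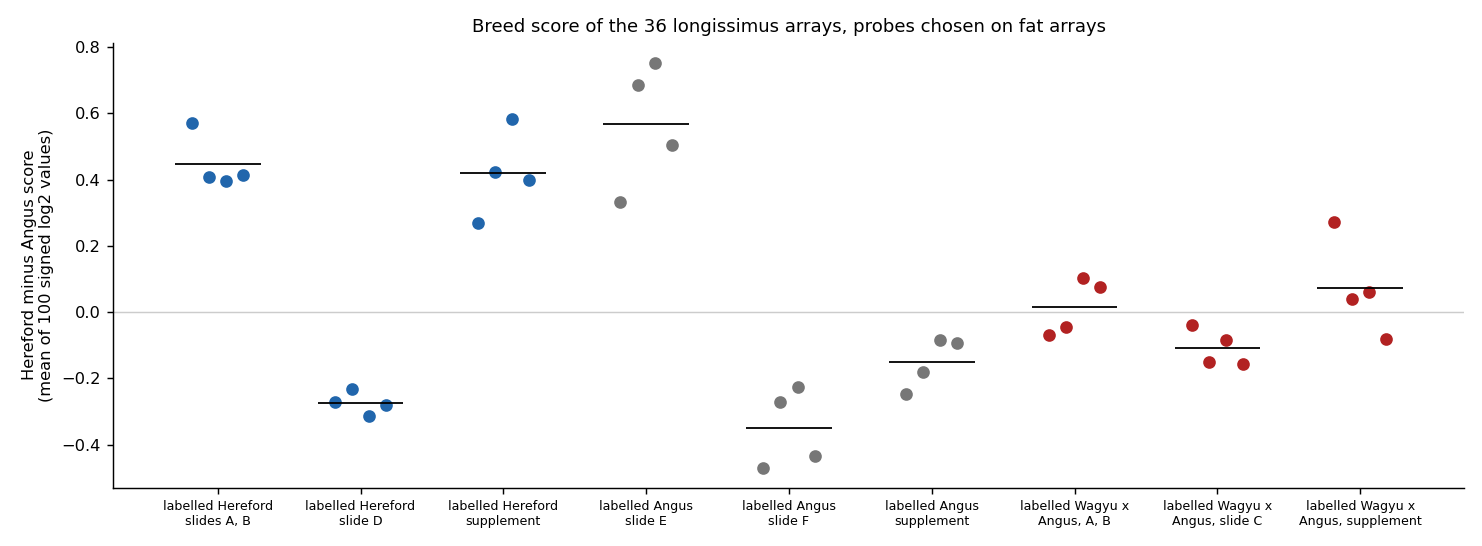
Hereford minus Angus score (y axis, mean of 100 sign-turned log2 levels, probes chosen on the fat arrays) of each of the 36 LD arrays, by label and slide (x axis). Points are arrays and lines are means. The 4 points labelled Hereford on slide D lie below 0, whereas the other 8 points labelled Hereford lie at 0.27 or above, and the 4 points labelled Angus on slide E lie at 0.33 or above.

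As labelled, 2879 probes passed an adjusted p of 0.05 in limma (8.41% of probes tested), 1092 of them higher and 1787 lower in Wagyu x Angus. With the deposited log2 values, scaled the same way, 844 of 3166 were higher, and unscaled 6 of 9. An unadjusted p under 0.05 was reached by 29.4%. Without slide D 13 probes passed (0.038%), 7 higher (0.0205%) and 6 lower (0.0175%), while 4999 (14.6%) had an unadjusted p under 0.05. On A and B alone, where both labels shared slides and a scan day, 1 passed (0.00292%) and 2865 (8.37%) had an unadjusted p under 0.05. With slide as a fixed block in all 16 arrays 9 passed (0.0263%), all lower. In that fit the breed difference comes from A and B, and C and D, with 1 label each, add only to the estimate of spread. Slide C minus slide D gave 13626 (39.8%), 7205 of them higher (21.1%), with 49.7% at an unadjusted p under 0.05, and 6855 probes (20.0%) differed in their breed difference between the slides that held both labels and those that held 1. For 3192 of these it was higher where both shared a slide, against 280 of 14602 with the unscaled deposited values and 1162 of 2015 with normexp background correction. Breed as labelled, slide and scan day cannot be told apart on C and D. Without overlap between the 8 and the 8 arrays stood 215 probes (0.628%), and without overlap between the 8 Wagyu x Angus arrays and the 4 Hereford arrays of A and B 678 (1.98%).

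Among the 13 probes called without slide D the largest difference was in BOLA-DQB, a class II beta chain. On the probe A_73_P336561 the 4 Hereford arrays of A and B lay at -0.93, -1.04, -0.67 and -1.03, and the 8 Wagyu x Angus arrays at -8.48 to -5.22 (median -7.57). The 4 arrays labelled Hereford on slide D lay at -7.76, -7.36, -6.20 and -7.46, within the Wagyu x Angus range. No Wagyu x Angus array was well above background on this probe, so Hereford A and B were at least 25.6-fold higher. In limma the difference was -6.44 ± 0.48 (SE) without slide D (adjusted p = 0.00034) and -5.76 on A and B alone (adjusted p = 0.042), against -3.30 as labelled (adjusted p = 0.079). A second BOLA-DQB probe, A_73_P052096, differed by -0.56 as labelled (adjusted p = 0.028) and by -0.57 without D (adjusted p = 0.17), so the probes of this gene disagreed in size. BOLA-DQB is one of several near-identical class II genes, whose probes may share signal.

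BOLA-DQA5, a class II alpha chain, was lower in Wagyu x Angus as well. Its Wagyu x Angus arrays lay at -7.47 to -5.39 (median -6.53), none well above background, the Hereford arrays of A and B at -2.83, -2.62, -2.47 and -0.62, and those of D at -4.94, -5.41, -6.36 and -5.07. The Wagyu x Angus and the Hereford A and B arrays did not overlap, whereas 2 arrays of D lay in between and 2 inside the Wagyu x Angus range. Hereford A and B were at least 11.1-fold higher, and the limma difference was -4.45 ± 0.47 (SE) without D (adjusted p = 0.006) and -2.80 as labelled (adjusted p = 0.027). In the 5 fat depots of the study, from arrays that may come from the same steers, the Wagyu x Angus minus Hereford difference of BOLA-DQA5 was between -6.25 and -2.71 and that of the BOLA-DQB probe between -8.81 and -4.20. In LD of supplemented steers the 4 Hereford arrays ranged from -8.14 to 0.59 for BOLA-DQB (median -1.20) and the 4 Wagyu x Angus arrays from -6.75 to -2.86, and the difference of -2.94 did not pass (adjusted p = 0.53). The lowest of these Hereford arrays was thus below every Wagyu x Angus array. BOLA-DQA5 had the same pattern in these arrays, with Hereford from -7.94 to -0.79 (median -2.30), Wagyu x Angus from -6.26 to -4.02 and a difference of -2.02 that did not pass (adjusted p = 0.58).

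**Figure D2:**
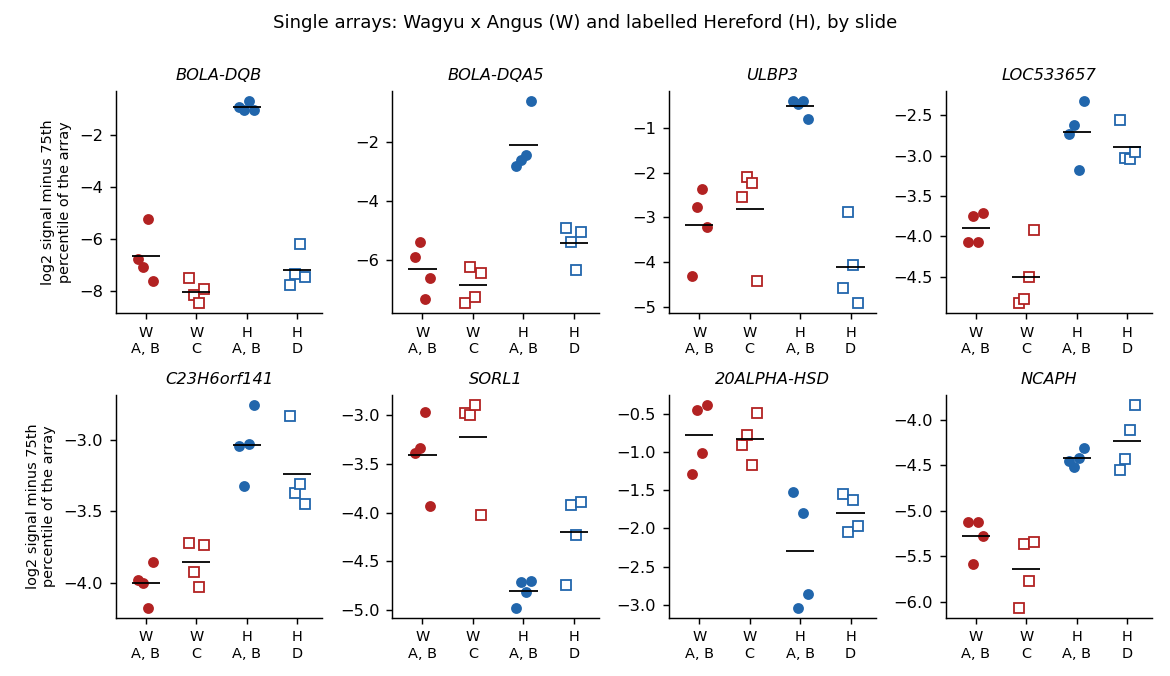
Level of 8 genes (y axis, log2 signal minus the 75th percentile of the array) on each of the 16 arrays; W is Wagyu x Angus and H is labelled Hereford, split by slide on the x axis, with circles for slides A and B and open squares for C and D. Lines are means. The H points of A and B lie apart from all W points for BOLA-DQB, BOLA-DQA5 and ULBP3, and those of D overlap the W points.

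C23H6orf141, an uncharacterised reading frame, was lower in Wagyu x Angus both as labelled and without slide D. Its 8 Wagyu x Angus arrays lay at -4.17 to -3.72 (median -3.95) and its 8 Hereford arrays at -3.45 to -2.76 (median -3.18), without overlap. The limma difference was -0.79 ± 0.11 as labelled (adjusted p = 0.0071) and -0.89 ± 0.12 (SE) without D (adjusted p = 0.029), and -0.77 in the supplement arrays (adjusted p = 0.24). In fat it ranged from -1.27 to 0.08.

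SORL1, a sorting receptor of the endosome, rose as labelled on 4 of its 5 probes, of which 1 passed without D. On the probe A_73_P343801 the Wagyu x Angus arrays lay at -4.03 to -2.91 (median -3.17), the Hereford arrays of A and B at -4.97, -4.71, -4.81 and -4.70 and those of D at -4.74, -3.92, -4.23 and -3.90, so that 2 arrays of D entered the Wagyu x Angus range. The limma difference was 1.48 ± 0.22 (SE) without D (adjusted p = 0.049) and 1.18 as labelled (adjusted p = 0.014), but 0.14 as labelled with normexp background correction (adjusted p = 0.67). The fifth probe, A_73_P438241, gave 0.27 without D (adjusted p = 0.41). PPP1R8, a nuclear inhibitor of protein phosphatase 1, turned direction with the slides. It stood at 0.18 as labelled, 0.92 without D (adjusted p = 0.046), 0.96 on A and B and -0.59 for C minus D. FAM171A1, a membrane protein, was at -1.28 without D (adjusted p = 0.049) on a probe that no Wagyu x Angus array and 2 of 8 Hereford arrays had well above background.

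The remaining probes called without D have no gene name here. A_73_P112186 lay at -1.21 to -0.94 on the 8 Wagyu x Angus arrays (median -1.08), at -3.74, -3.48, -2.16 and -3.26 on Hereford A and B, and at -0.80, -3.31, -3.28 and -3.34 on D. It differed by 2.08 ± 0.22 (SE) without D (adjusted p = 0.006). A_73_P073471, A_73_P059936 and A_73_P055361 had the same pattern, with 1 array of D at the Wagyu x Angus level and the other 3 at the Hereford level, and differences of 3.07, 2.84 and 2.86. These 4 probes were higher in Wagyu x Angus in all 5 fat depots as well, by 0.52 or more. A_73_P134666 was higher by 1.15 without D (adjusted p = 0.029), with no overlap between the 8 and the 8 arrays. A_73_116304, lower by 3.62 on the log2 scale (adjusted p = 0.00034), was not well above background on any Wagyu x Angus array and at least 4.54-fold higher in Hereford A and B. A_73_P096006 differed by -0.88 (adjusted p = 0.048) and by 0.18 in the supplement arrays. With normexp limma called 0 probes as labelled (5893 at an unadjusted p under 0.05). The differences as labelled of the following probes kept their sign but shrank. They went from -3.30 to -1.49 for BOLA-DQB on A_73_P336561, from -2.80 to -1.05 for BOLA-DQA5 and from -0.79 to -0.50 for C23H6orf141. For A_73_P112186 the change was from 1.84 to 1.10, for A_73_P073471 from 2.97 to 0.74 and for A_73_P055361 from 2.53 to 1.52.

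**Figure D3:**
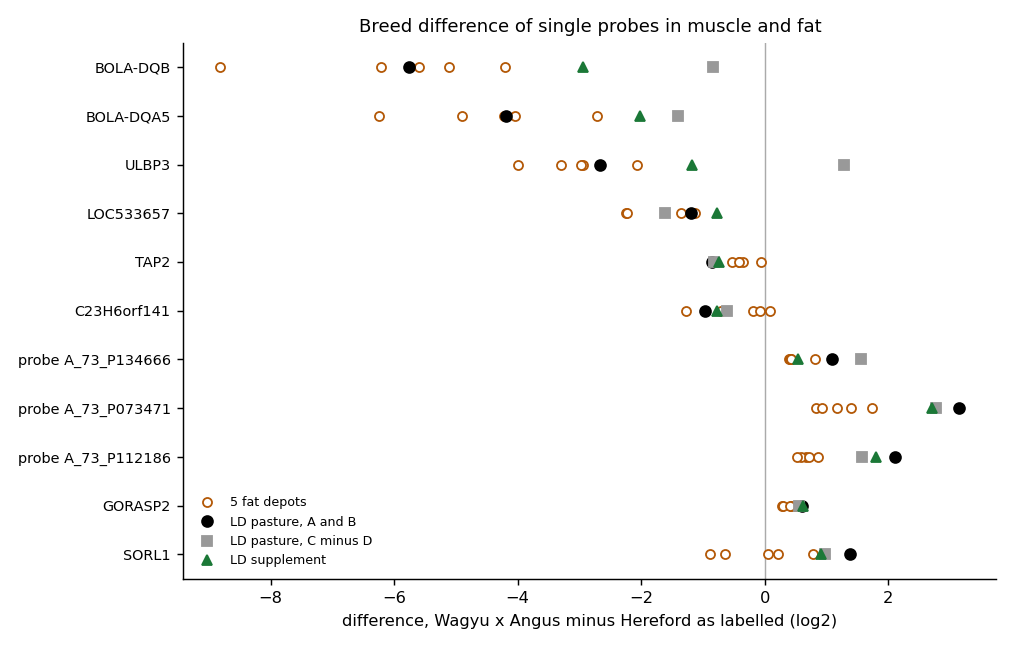
Wagyu x Angus minus Hereford difference (x axis, log2) of 11 probes (y axis) in LD on pasture on slides A and B, for slide C minus slide D, in LD of supplemented steers, and in each of the 5 fat depots. BOLA-DQB and BOLA-DQA5 lie at -2.71 or below in fat, where the C minus D points lie at -1.41 and above.

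ULBP3, LOC533657 and the GORASP2 of the plot across tissues were chosen after their values were seen. ULBP3, a ligand of the natural killer cell receptor NKG2D, had Hereford A and B levels of -0.40, -0.46, -0.38 and -0.79 on A_73_P041716, against -4.43 to -2.09 on the 8 Wagyu x Angus arrays. Slide D lay at -4.57, -2.88, -4.08 and -4.92. The limma difference was -2.48 without D (adjusted p = 0.072) and -0.68 as labelled, and its other probe gave -0.25 without D. LOC533657, listed with the synonym GBP6, a guanylate-binding protein, has 3 probes. One of them is A_73_P093006, on which the 8 Wagyu x Angus arrays (-4.83 to -3.72) did not overlap the Hereford arrays of A and B (-2.74, -2.62, -3.17 and -2.32) or of D (-2.55, -3.03, -3.04 and -2.95). It differed by -1.40 as labelled (adjusted p = 0.0045) and -1.49 without D (adjusted p = 0.055), and the other probes by -2.36 and -0.95 as labelled.

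Among genes with a symbol other than a LOC number, without overlap between the 8 and the 8 arrays, well above background on 6 arrays of one breed and called as labelled, 49 were higher and 54 lower in Wagyu x Angus. None of the 10 highest or the 10 lowest was called without slide D. Among the lowest by difference were ACTRT2, an actin-related protein (-1.37), PABPN1, a poly(A) binding protein (-1.15), CENATAC (-1.13), NCAPH, a condensin subunit (-1.13), IKBIP (-1.11), CD40, a costimulatory receptor of antigen-presenting cells (-1.10), CDC7 (-1.03), ARMCX2 (-1.02) and PRKAR2B, a regulatory subunit of protein kinase A (-0.94). Without D NCAPH stood at -1.03 (adjusted p = 0.055) and CD40 at -1.05 (adjusted p = 0.11), whereas ACTRT2, PABPN1 and CENATAC fell back to -0.72, -0.54 and -0.50.

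The difference of NCAPH was about as large without slide D, although the call was lost. Its Wagyu x Angus arrays lay at -6.06 to -5.12 (median -5.35) and its Hereford arrays at -4.55 to -3.84 (median -4.42). The Hereford arrays of A, B and D were above every Wagyu x Angus array, a separation that the rule for naming NCAPH required. With normexp it stood at -0.54 as labelled (adjusted p = 0.26 in limma), and on the supplement arrays at -0.07.

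The highest by difference were 20ALPHA-HSD (1.24) and AKR1C3 (1.23), near-identical aldo-keto reductases of steroid metabolism whose probes may read the same transcripts, then RPS6KA1 (0.97 on one probe, 0.66 on the other, which was not called), MCRS1 (0.79), SEMA4D, a semaphorin (0.79), UBA1, the first enzyme of ubiquitin transfer (0.74), CHAF1A (0.68), NGRN (0.63), ZNF655 (0.61) and TAX1BP1 (0.59). 20ALPHA-HSD lay at -1.28 to -0.38 on the Wagyu x Angus arrays (median -0.84), at -3.04 to -1.52 on Hereford A and B and at -2.05 to -1.55 on D. It rose by 1.24 ± 0.23 (SE) as labelled (adjusted p = 0.014), did not pass without D (adjusted p = 0.11) and stood at 0.88 in the supplement arrays. MCRS1 and UBA1 stood at 0.25 and 0.26 without D, and SEMA4D, also no longer called, at 0.61 (adjusted p = 0.065). With normexp RPS6KA1 and MCRS1 stood at 0.06 and 0.17 as labelled.

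Some antigen presentation and interferon genes fell as labelled, and none rose. The lists were chosen with earlier results of these data known. Of 19 measured genes of the major histocompatibility list 8 fell and none rose (5.22% of all probes fell), with a median difference of -0.42 against 0.02 for all probes. These were TAP2, DSB, BOLA-DQA5, BOLA-DQB by its brighter probe, PSMB8, BOLA-A, PSMB9 and BOLA-DQB1. Without D the median was -0.26 and 1 fell, BOLA-DQA5, with 7 lower at an unadjusted p under 0.05 (7.36% of all probes). On A and B it was -0.18, for C minus D -0.65 and in the supplement arrays -0.44, with none called there and 8 lower at an unadjusted p under 0.05 (6.45% of all probes). TAP2, which carries peptides into the endoplasmic reticulum, lay at -0.63 to 0.53 on Wagyu x Angus (median -0.01) and 0.38 to 1.23 on Hereford (median 0.89), with 1 Wagyu x Angus array of slide C inside the Hereford range. It fell by 0.86 ± 0.15 (SE) as labelled (adjusted p = 0.013) and stood at -0.71 without D (adjusted p = 0.19).

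Of 23 measured interferon-stimulated genes 9 fell as labelled (5.22% of all probes fell), with a median of -0.64. These were DHX58, USP18, EIF2AK2, RSAD2, ISG15, XAF1, MX1, HERC6 and IFIT5, sensors and effectors of the antiviral response. The direction of EIF2AK2 turned with slide as a block. DHX58 lay at -5.29 to -4.15 in Wagyu x Angus (median -4.73), at -4.23 to -3.79 on Hereford A and B and at -3.44 to -3.04 on D, so that all 4 arrays of D and 2 of A and B lay above every Wagyu x Angus array. It fell by 1.07 ± 0.20 (SE) as labelled (adjusted p = 0.016) and stood at -0.70 without D (adjusted p = 0.23). Without D none of the 23 was called, 4 were lower at an unadjusted p under 0.05 (7.36% of all probes were) and the median was -0.35. On A and B the median was -0.19 and for C minus D -1.10. In the supplement arrays it was -0.48, with 0 calls and 4 lower at an unadjusted p under 0.05 (6.45% of all probes). Macrophage markers (9 genes) had a summed level of 2.07 to 2.67 on Wagyu x Angus A and B, 2.22 to 3.32 on Hereford A and B, 2.75 to 3.37 on C and 2.57 to 3.73 on D, and T and B cell markers (10 genes) had a median difference of 0.01, with CD3D called lower (-0.53, adjusted p = 0.029; 5.22% of all probes fell) and standing at -0.28 without D (adjusted p = 0.35). Their part in the immune gene differences was not tested.

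The summed level of 16 adipocyte markers was 5.80 to 6.99 on C, 4.56 to 5.22 on D, 4.46 to 5.02 on Wagyu x Angus A and B and 4.43 to 4.89 on Hereford A and B. Slide C did not overlap the other slides, and the 2 breeds overlapped on A and B. None of the 16 was called as labelled (median difference 0.57) or without D (0.61), with 10 and 1 higher at an unadjusted p under 0.05 (14.1% and 7.25% of all probes). Slide C minus D gave 13 called higher (21.1% of all probes were) and a median of 1.32, against 0.06 on A and B and -0.11 in the supplement arrays. CFD, adipsin, was the marker below 0 for C minus D (-0.48, adjusted p = 0.078). The summed level of 15 skeletal myofibre markers was lowest on slide C, at 12.50 to 12.55, against 12.59 to 13.00 on D, 12.83 to 12.94 on Wagyu x Angus A and B and 12.75 to 12.92 on Hereford A and B. Slide C did not overlap the other slides here either, and the part of this in the adipocyte difference was not tested.

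FABP4, the fatty acid binding protein of adipocytes, lay at -0.12 to 5.61 on the Wagyu x Angus arrays (median 2.74) and at -0.52 to 3.09 on the Hereford arrays (median 0.88). Its difference was 1.76 ± 0.80 (SE) as labelled, 2.01 without D, 0.23 on A and B, 3.30 for C minus D and -0.32 in the supplement arrays, and limma called only C minus D (adjusted p = 0.0074). CIDEC, which fuses lipid droplets, differed by 1.98, 2.14, 0.20, 3.76 and -0.12 in the same order. PLIN1, the droplet coat, differed by 1.35 as labelled, 0.04 on A and B, 2.65 for C minus D and 0.22 in supplement. ADIPOQ, adiponectin, differed by 0.96, -0.08, 2.01 and -0.48 in these 4 sets.

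Of 19 measured genes of fatty acid synthesis 1 rose and 1 fell as labelled (3.19% and 5.22% of all probes), and none was called without D, where the median was 0.45. The gene that rose was SCD, which desaturates stearate to oleate, at 3.00 to 4.71 in Wagyu x Angus (median 3.93) and 2.26 to 3.6 in Hereford (median 2.84), with overlap. It rose by 1.04 ± 0.28 (SE) as labelled (adjusted p = 0.035) and stood at 0.89 without D (adjusted p = 0.30), 0.28 on A and B, 1.81 for C minus D and -0.34 in the supplement arrays. FADS2, a desaturase of longer fatty acids, fell by 0.65 (adjusted p = 0.036) and stood at -0.68 without D (adjusted p = 0.26). FASN, fatty acid synthase, differed by 0.99 (adjusted p = 0.077) as labelled, 1.06 without D and 0.27 on A and B. AGPAT2, an enzyme of triacylglycerol assembly, was above 0 in every set, at 0.56 as labelled, 0.99 without D, 0.74 on A and B, 0.37 for C minus D and 0.71 in supplement, none called except C minus D (adjusted p = 0.014).

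Fatty acid oxidation had 3 of 22 genes higher as labelled (3.19% of all probes rose), ECHS1 (0.29), CPT2 (0.73) and SLC25A20 (0.26), and none without D. With quantile normalization none of these 3 genes was called as labelled. The lists of triacylglycerol synthesis (11 genes), lipolysis and lipid droplet (14) and fatty acid uptake (13) had no call as labelled, where 8.41% of all probes were called. Their medians as labelled were 0.35, 0.34 and 0.16. At an unadjusted p under 0.05 they had 5, 5 and 5 genes higher and 2, 0 and 2 lower (29.4% of all probes in either direction). Of the other lipid genes, ACACA differed by 0.85 as labelled, ELOVL6 by 0.98, DGAT2 by 1.02, LPL by 0.72, CIDEA by 0.57, ME1 by 0.28, ACSS2 by 0.32, GPAM by -0.17, G0S2 by 0.37, LEP by 0.32 and PCK2 by 0.59, and none was called. Without D the sign turned for ACACA (-0.22) and GPAM (0.28), and with normexp LEP stood at -0.27 and ACACA at 0.01. LEP was well above background on 4 Wagyu x Angus and 1 Hereford array. TDH was well above background on 2 Wagyu x Angus arrays and no Hereford array, its Wagyu x Angus mean was below the lowest signal counted as well above background, and it was not called. For C minus D CIDEA stood at 0.94 (adjusted p = 0.0032), ACACA at 1.58 (adjusted p = 0.0058) and PCK2 at 1.26 (adjusted p = 0.0075) in limma, against 0.19, 0.12 and -0.07 on A and B, none of these called on A and B. CH25H, cholesterol 25-hydroxylase, lay at -2.72 to -0.36 in Wagyu x Angus (median -1.44) and -2.06 to -0.86 in Hereford (median -1.30), a difference of 0.01 as labelled (adjusted p = 0.99) and of 0.14 without D.

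**Figure D4:**
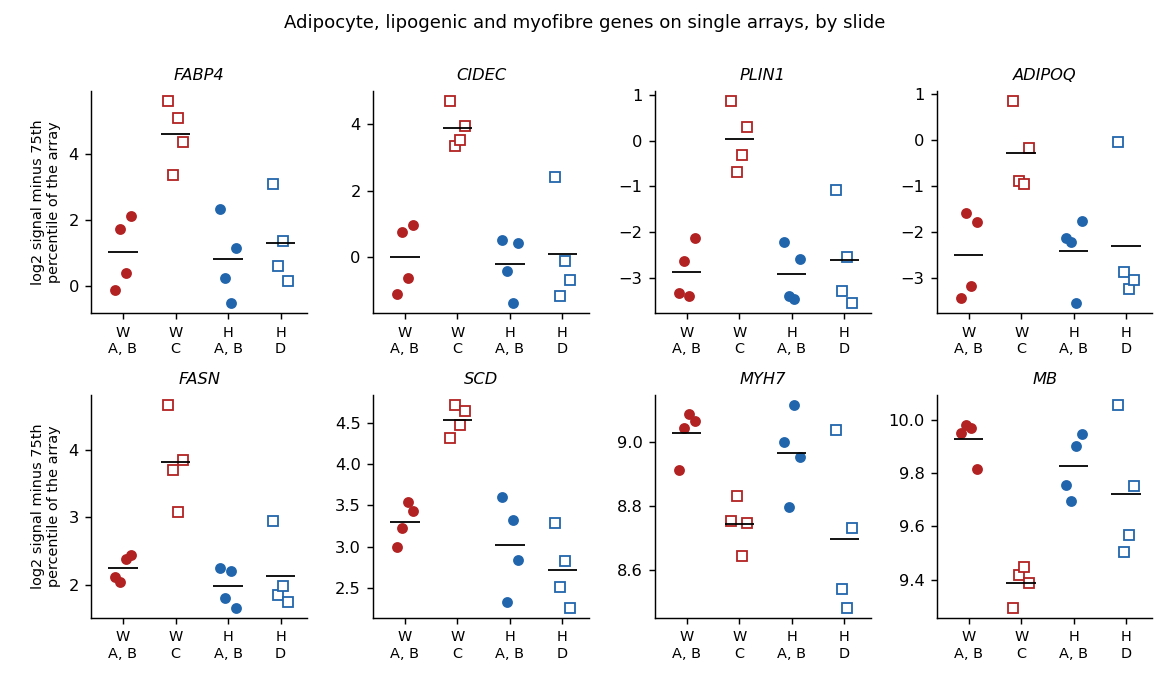
Level (y axis, log2 signal minus the 75th percentile of the array) of 4 adipocyte genes, 2 lipogenic genes and 2 myofibre genes on each of the 16 arrays, split by breed as labelled (W, Wagyu x Angus; H, Hereford) and slide on the x axis; circles are A and B, open squares C and D, lines are means. W points of slide C lie highest for FABP4, CIDEC, PLIN1, FASN and SCD, and lowest for MB.

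No gene of the skeletal myofibre (15 genes), slow fibre (11), fast fibre (12) or myogenic (12) lists was called as labelled or without D. Of all probes 8.41% were called as labelled and 0.038% without D. MYH7, the slow myosin heavy chain, lay at 8.64 to 9.09 in Wagyu x Angus and 8.48 to 9.12 in Hereford (difference 0.05 ± 0.11, SE), MYH2 differed by 0.00 and MYH1, the fast IIx chain, by -0.13. UGP2, which makes UDP-glucose for glycogen, was the call among 19 glycolysis genes (0.43, adjusted p = 0.042; 3.19% of all probes rose) and stood at 0.41 without D (adjusted p = 0.27). As labelled with quantile normalization UGP2 was not called (adjusted p = 0.066 in limma). IGF1, a growth factor of muscle, differed by -0.35 (adjusted p = 0.069), and DLK1, HOXA10, INHBA, CNN1 and ACTA2 by 0.37, -0.86, -0.52, -0.13 and -0.07, none called. LMOD1 was the call among 9 smooth muscle genes (0.68, adjusted p = 0.042; 3.19% of all probes rose) and stood at 0.37 without D (adjusted p = 0.34). As labelled with quantile normalization LMOD1 was not called (adjusted p = 0.058 in limma).

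The respiratory chain, which carries out oxidative phosphorylation in mitochondria, had 9 of 85 genes that rose as labelled (3.19% of all probes rose) and none that fell, among them SDHC (0.49), SDHA (0.35) and CYC1 (0.31). SDHC, of complex II, lay at 5.35 to 5.95 in Wagyu x Angus (median 5.70) and at 4.84 to 5.40 in Hereford (median 5.22), with overlap. Without D no gene was called, with 20 higher and 1 lower at an unadjusted p under 0.05 (7.25% and 7.36% of all probes). On A and B 38 of 85 were higher and 0 lower at that level (3.55% of all probes were higher), and the median was 0.19 against -0.01 for all probes. For C minus D the median was -0.01, with 39 of 85 above 0, and in the supplement arrays it was 0.15, with 79 above 0.

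Of 9 endothelial markers 5 fell as labelled (KDR, CDH5, EMCN, ESAM and PECAM1; 5.22% of all probes fell) with a median of -0.40. KDR, the receptor of VEGF, lay at -1.47 to -0.63 in Wagyu x Angus (median -1.17) and -0.66 to 0.00 in Hereford (median -0.51). It fell by 0.69 ± 0.14 (SE, adjusted p = 0.019) and stood at -0.61 without D (adjusted p = 0.22). All 9 were below 0 in every set, with medians of -0.40 without D, -0.21 on A and B, -0.63 for C minus D and -0.31 in supplement, and none called without D. Of 25 genes of the extracellular matrix 1 fell, where 5.22% of all probes did, POSTN, periostin (-1.26, adjusted p = 0.022), which was not called without D (-1.38, adjusted p = 0.18). Schwann cell markers turned with the slides, from a median of 0.45 on A and B to -1.22 for C minus D, and were not called as labelled.

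**Figure D5:**
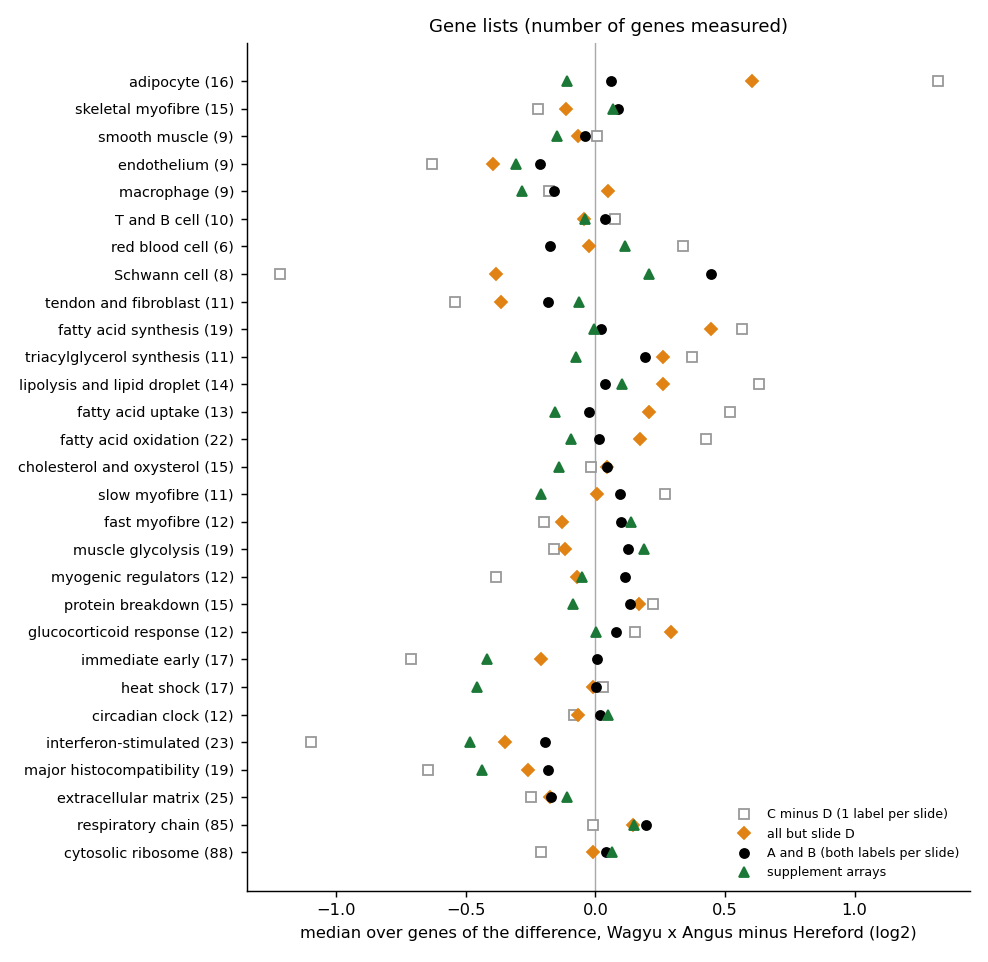
Median difference over the genes of each list (x axis, log2, Wagyu x Angus minus Hereford) for slide C minus D, for all arrays but slide D, for slides A and B and for the supplement arrays (y axis, lists with the number of genes measured). Adipocyte markers lie at 1.32 for C minus D and at 0.06 on A and B, and endothelial markers lie below 0 in all 4.

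The supplement LD arrays, 4 of each breed with each breed on a slide of its own, asked the same of other steers. There 19 probes were called (0.0555%), 7 of them higher, against 17 of 29 with quantile normalization and 1 of 7 with the unscaled deposited values. Of all probes 55.9% had the same sign of difference in both diets, against 65.5% of those called as labelled, 71.3% of those with an unadjusted p under 0.05 on A and B (59.1% of all probes on A and B) and 12 of the 13 called without D. Of the probes at that level for C minus D 53.9% had the same sign (52.9% of all probes for C minus D). No such share of all probes was taken for the difference without D, so the 12 of 13 has nothing to be set against. The breed difference differed between the pasture and supplement arrays for 1 probe (0.00292%; 4875 at an unadjusted p under 0.05), in CSDC2, an RNA binding protein. It lay at -2.03 to -1.72 in Wagyu x Angus and -2.48 to -1.85 in Hereford on pasture, against -0.48 to -0.10 and -2.02 to -1.51 with supplement, a change of the breed difference of -1.19 ± 0.18 (SE, adjusted p = 0.036). Without D it was -1.33, and 2 probes were called (0.00584%). It was not called with normexp (-1.04), with unscaled deposited values (-1.01) or with the replicate block (-1.21, adjusted p = 0.095), and called in 9 of 24 fits with 1 array left out (-1.27 to -1.10). Each breed of the supplement arrays lay on 1 slide, so neither breed nor diet can be told apart from slide there, and kill is not labelled.

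Arrays of slides A and B and the supplement arrays shared a scan day, and their joint breed contrast, with diet as a term and chosen after seeing the data, called 155 probes (0.453%), 75 higher and 80 lower. This contrast had no slide term, and in its supplement part breed and slide cannot be told apart. With normexp 187 of 276 were higher, and with the unscaled deposited values 10 of 70. The genes named here were chosen after their values were seen. MOCS1, of molybdenum cofactor synthesis, was higher by 0.99, with -1.51, -1.31, -1.30 and -1.33 on Wagyu x Angus A and B and -2.66 to -2.19 on Hereford A and B. CACNG4, a calcium channel subunit, was higher by 1.79 (adjusted p = 0.031), C2CD4B by 1.48 (adjusted p = 0.023) and MLLT11 lower by 1.53 on the log2 scale (adjusted p = 0.023), each on its probe of smallest p. TAP2 stood at -0.79 (adjusted p = 0.021) and C23H6orf141 at -0.86 (adjusted p = 0.014). In the respiratory chain 3 genes were called higher, where 0.219% of all probes were (SDHC 0.32, NDUFS1 0.43, NDUFB10 0.29), and 55 of 85 were higher and 0 lower at an unadjusted p under 0.05 (8.2% of all probes were higher). BOLA-DQA5 was not called (-3.10, adjusted p = 0.11).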

How the data were processed

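RNA of 96 samples was hybridised to one-colour Agilent 4x44K bovine arrays. Per the file headers the authors deposited scanner output of Feature Extraction, whose processed intensity has background and spatial trend subtracted but is not scaled across arrays. A table of log2 values was deposited by the authors too, and its values equal the log2 of median spot minus median background signal, floored at 1, within 0.0001 for all 3285792 values, unscaled.

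From these, log2 of the processed intensity minus the 75th percentile of each array was computed for the probes of the deposited log2 table. Outlier spots were left out (67 values in the 16 arrays). Names came from RefSeq accessions (ARS-UCD2.0, 19903 probes) and the study's tables (4465 probes), and 62.7% of probes have one. Fits used limma 3.58.1 (R 4.3.3) with Benjamini-Hochberg adjustment over all probes and a threshold of 0.05, and tables used Python 3.11.15. The scripts were tested on simulated data. The number of arrays limits the precision.

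The genes named are the 10 highest and 10 lowest by difference with a symbol other than a LOC number, called without overlap and well above background on at least 6 arrays of one breed, the up to 4 members of smallest p called in each list, and 33 genes named whatever their values (MSTN was not measured). The probes called without slide D were added after their values were seen. Some genes of this rule are not reported here. In lists a gene is its brightest probe. The members and lists were chosen with earlier results of these data known. Alternatives were other scalings, normexp background correction (offset 50, on median spot signals), the deposited values, probe filters, the methods' t-test, blocks for slide, scan day and replicate number, and each array left out.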

Additional observations from a re-analysis of the deposited data

Results flagged for a closer look

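Of 190 checks of 8 arrays of one breed for a single array far from the other 7, 7 found one, and chance gives about 1 in 20. In Wagyu x Angus the lowest array was at -7.04 for A_73_106025 (others -5.74 to -5.21), at -6.04 for PRKAR2B (others -5.27 to -4.86) and at 5.44 for UGP2 (others 5.90 to 6.25), and the highest was at 0.13 for BOLA-DQB on A_73_P052096 (others -0.59 to -0.29). In arrays labelled Hereford, 1 array of slide D was highest for FASN at 2.95 (others 1.66 to 2.24) and for ELOVL6 at -3.06 (others -4.41 to -3.81), and another array of slide D was lowest for MYH2 at 8.54 (others 8.87 to 9.12).

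The breed difference of CSDC2 differed between the pasture and supplement arrays by -1.19 (adjusted p = 0.036 in limma, pasture minus supplement), a call lost with normexp, with unscaled deposited values and with the replicate block. Diet and slide cannot be told apart there. In the 8 LD pasture arrays labelled Angus, which enter no comparison here, slide E held arrays as high as -1.02 for BOLA-DQB on A_73_P336561 and -1.32 for BOLA-DQA5, whereas no array of slide F exceeded -8.46 and -5.33. The lowest arrays of slide E were at -7.83 and -7.79.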

How the results depend on the processing

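As labelled 2879 probes were called, and 2182 to 3712 under quantile normalization, mean centring, scaled deposited values, all probes, a filter on dim probes, the methods' t-test or a spread from 24 arrays. There were 0 with normexp (5893 at an unadjusted p under 0.05), 9 with unscaled deposited values, 9 with slide as a fixed and 3 as a random block, 4 with scan day as a block, 1 on A and B (0 with slide as a block, 3109 unadjusted), 13626 on C and D and 13 without slide D. Leaving out 1 array gave 587 to 3967, and moved the count by over 1.5 times when it was the Wagyu x Angus array of slide B position 1 (1857), any of slide C (726 to 1155) or any of slide D (587 to 1074). Of the 2879 probes called as labelled 9 were called without D. The 6855 probes that differed by slide kind became 2015 with normexp and 14602 with unscaled deposited values. The 1 probe by diet became 3 with quantile normalization, 3 with mean centring, 2 with all probes, 2 without slide D, 22 on scan day 1, 0 with normexp (2118 unadjusted) and 0 with unscaled deposited values (1500 unadjusted), and leaving out 1 array gave 0 to 46 (46 without the Hereford array of slide B, 31 without Hereford supplement replicate 4). The 19 supplement probes became 29 with quantile normalization, 7 with unscaled and 10 with scaled deposited values, and 2 to 22 with 1 array left out. The 155 of scan day 1 became 276 with normexp, 70 and 80 with unscaled and scaled deposited values and 55 with all probes, and 26 to 125 with 1 array left out, the fewest without Hereford supplement replicate 2. Directions turned for some probes, among them A_73_116879 (-1.53 with slide as a fixed block), EIF2AK2 (0.015 with slide as a block, in all arrays or on A and B) and PPP1R8 (-0.59 on C and D). Taking the median over all probes of a gene in place of its brightest probe kept the sign of the adipocyte, interferon, histocompatibility, endothelial and respiratory chain medians as labelled. The causes were not tested. The median difference of all probes was 0.02 as labelled, -0.14 with normexp and 0.14 with unscaled deposited values.

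The replicate numbers of the labels repeat across slides. Deviations of 14 same-numbered pairs, each of a Wagyu x Angus and a Hereford array, correlated by -0.11 to 0.067. Same-numbered arrays within a breed were not compared, so whether they share a steer was not tested. With the replicate block 1741 probes were called as labelled, 0 by diet (4621 unadjusted) and 1 in the supplement arrays.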
